A study of Mus musculus with 12 samples.

Results

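The mitochondrial genome transcripts are the 37 rows of the count table whose gene symbol starts with mt-, of 33924 rows in all. They comprise 2 ribosomal RNAs (rRNAs), 22 transfer RNAs (tRNAs) and 13 messenger RNAs (mRNAs), and all 37 symbols were found on the mitochondrial chromosome of the GENCODE M21 annotation. RNA was profiled by Lexogen 3′ mRNA sequencing in 12 libraries of mouse myeloid progenitors. These are live bone marrow cells that lack lineage markers and Sca1 and carry c-Kit, the gate that holds granulocyte, monocyte, erythroid and megakaryocyte precursors. The 4 groups have 3 libraries each. Old het mice were Mx+ Wt1fl/+ and labelled old chronic, and old control mice were Mx+ Wt1+/+ with the same age label. Young het mice were Mx+ Wt1fl/+ and labelled young acute, and young control mice were Mx+ Wt1+/+ with that age label. Every mouse, control mice included, was thus Mx+. The labels do not explain Mx+, chronic or acute, give no age in weeks or months, and do not say how the floxed allele was recombined. Age therefore cannot be told apart from whatever chronic and acute stand for. Nor do the labels say whether libraries of a group came from separate animals, so p-values measure the spread between these libraries, which may be technical.

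Mitochondrial DNA is a small circle that encodes subunits of the respiratory chain and of ATP synthase together with the rRNAs and tRNAs needed to translate them. Each of its strands is transcribed into long precursors, from which the tRNAs are cut out and so set free the rRNAs and mRNAs that lie between them. Copies therefore start from a few promoters, and steady levels of single products depend on cleavage, poly(A) tailing and decay by enzymes encoded in the nucleus. Progenitors of the bone marrow use both glycolysis and respiration, and mitochondrial content changes as they mature.

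The tRNAs on which the comparisons turn are shown as DNA letters of the GENCODE M21 transcripts (build GRCm38, mitochondrial chromosome), 5′ to 3′, with the anticodon in capitals. They are the 6 tRNA rows that were counted in every library.
mt-Tp: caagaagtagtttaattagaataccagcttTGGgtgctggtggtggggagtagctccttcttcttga
mt-Tq: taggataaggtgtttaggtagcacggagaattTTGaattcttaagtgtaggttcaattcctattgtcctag
mt-Te: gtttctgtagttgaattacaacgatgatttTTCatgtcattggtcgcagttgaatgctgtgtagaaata
mt-Tn: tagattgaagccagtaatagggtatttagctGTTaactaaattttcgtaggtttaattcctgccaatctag
mt-Tc: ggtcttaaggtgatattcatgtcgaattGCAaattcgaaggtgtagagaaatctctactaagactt
mt-Tm: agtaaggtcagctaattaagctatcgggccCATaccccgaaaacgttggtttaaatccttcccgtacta
They carry proline, glutamine, glutamate, asparagine, cysteine and methionine in the order of the lines. The first 5 are copied from the light strand of the annotation and mt-Tm from the heavy strand, and they are 66 to 71 bases long. None of these sequences ends in CCA, the 3′ end to which amino acids are joined, which is added to tRNAs after transcription.

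Total counts were 1264603 to 2303346 in old het, 2074955 to 9645502 in old control, 3113183 to 6794892 in young het and 645460 to 1600995 in young control libraries. The young control libraries were thus shallower than every old control and young het library. The upper limit that a count of 0 allows, 3 counts, stands for 0.311 CPM (the usual scaling of counts to the same total in each library, here that of all rows) in the deepest library and 4.65 CPM in the shallowest. Intervals and limits given here cover counting error only. Wt1 itself had 1 to 23 counts per library, with 3, 2 and 4 in old het, 1, 4 and 2 in old control, 7, 4 and 23 in young het and 8, 4 and 6 in young control libraries. It is too thinly counted to check the genotype labels, and no source used here says whether its 3′ tags lie in the floxed part. Kit was counted at 97.2 to 265 CPM in the 12 libraries, and the 4 T and NK cell markers summed to at most 5.70 CPM. The 2 plasma cell markers summed to as much as 55.5 CPM in old control. Ly6a, which encodes Sca1, had no count in any young library and reached 79.0 CPM in old control 1, the deepest library. The Y-linked Ddx3y had no count in old het 1, in young control 3 or in any young het library, and these libraries held 1058 to 12513 counts of Xist. Young het libraries therefore differ from young control 1 and 2 in sex-linked RNA as well as in Wt1 genotype. The sample titles number the old libraries from 1 to 6, young het 19 to 21 and young control 29, 30 and 18, and no source used here says what these numbers mark.

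Over the 12 libraries, 1802312 of 40122978 counts (4.49%) fell on mitochondrial rows. The 2 rRNAs were counted in every library, mt-Rnr2 at 766951 and mt-Rnr1 at 382215 counts in all. These encode the large and small subunit RNAs of the mitochondrial ribosome. Of the 13 mRNAs, 8 had at least 100 counts in all, mt-Co3 had 6 counts in a single library, and 4 had no count at all. Of the 22 tRNAs, 11 had at least 100 counts, 4 had fewer and 7 had none. Altogether 11 of the 37 rows had no count in any library, which allows at most 0.0748 CPM over the pooled libraries, and 15 rows were counted in every library.

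Most of the rows without counts lay in 1 stretch of the genome. Between mt-Co1 and mt-Nd4 lie 11 consecutive rows, and 8 of them had no count, against 3 of the other 26. The bounds were chosen with these counts known, so the contrast describes the gap and does not test it. This stretch holds mt-Co2 and mt-Co3, subunits of cytochrome c oxidase, mt-Atp6 and mt-Atp8 of ATP synthase, and mt-Nd3 and mt-Nd4l of complex I. It took 1008 counts, or 0.0559% of the mitochondrial counts, of which 967 were mt-Nd3 and 35 mt-Tr. In the GRCm38 reference, 5 of these 6 mRNAs match an annotated nuclear transcript on chromosome 1 at 99% identity or more over at least 98% of their length. These are mt-Co2 (Gm28661), mt-Atp6 (Gm10925), mt-Co3 (Gm28437), mt-Nd4l (Gm10222) and mt-Nd3 (Gm28438), each at 100% identity except mt-Nd3 at 99.7%. Of these, mt-Nd3 and mt-Co3 were counted. The other rows of the stretch without counts had no such copy among the annotated transcripts, which alone were searched. For mt-Ts1, mt-Td, mt-Tk and mt-Tg no nuclear match was found, and mt-Atp8 matched at that identity over 21.1% of its length. The nearby mt-Nd4 shares 63.6% of its length with Gm28439, also at 100% identity, and it was the most counted mRNA. No source used here says how reads with several equal matches were counted, and the part of these copies in the missing counts was not tested. Levels of mt-Nd3, mt-Nd4 and mt-Co1, which matches Gm29216 on chromosome 1 over 31.3% of its length at 99.8% identity, are uncertain for the same reason.

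**Figure D1:**
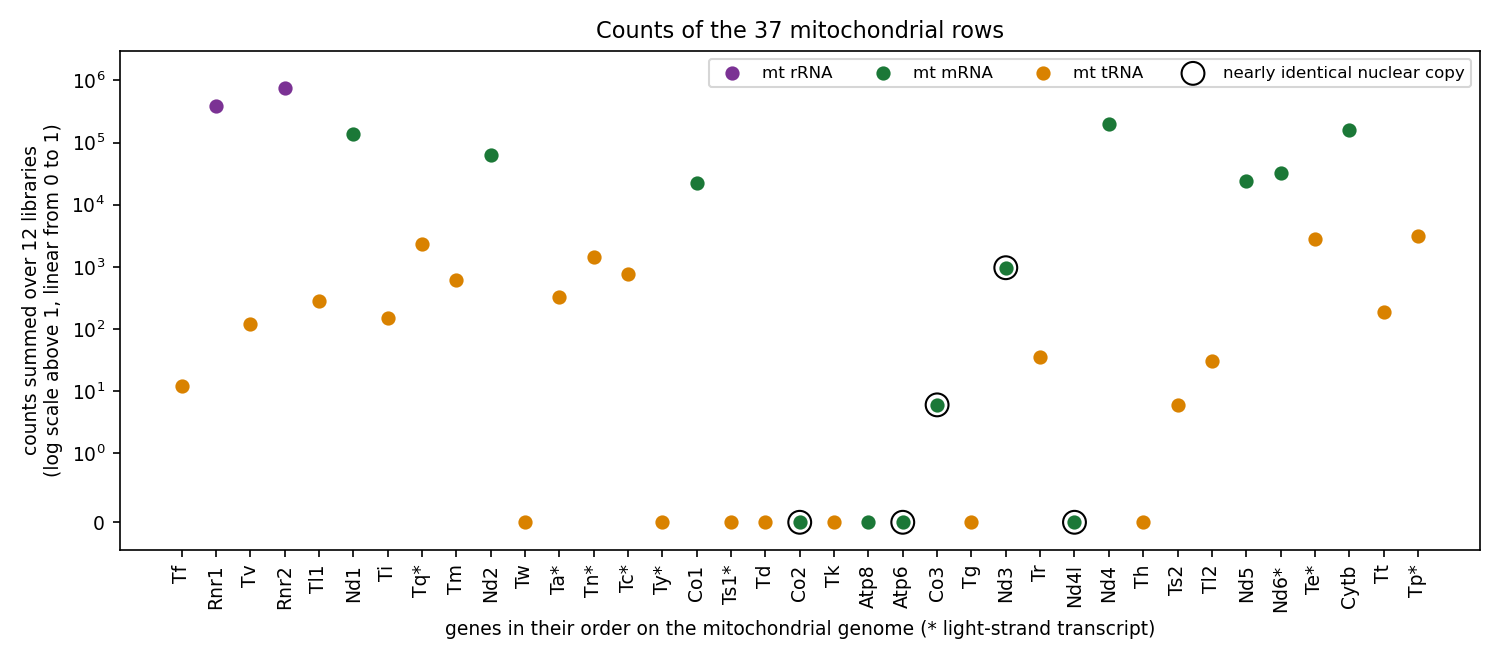
Counts summed over the 12 libraries for each of the 37 mitochondrial rows, in their order along the genome, with rRNA, mRNA and tRNA in 3 colours. The vertical axis is logarithmic above 1 and linear below it, asterisks mark light-strand transcripts, and rings mark the 5 mRNAs with a nearly identical nuclear copy. The run of rows at 0 or at most 967 counts lies between mt-Co1 and mt-Nd4.

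Among tRNAs, those copied from the light strand held most of the counts. The 8 light-strand tRNAs took 10806 counts and the 14 heavy-strand tRNAs 1444, and the light-strand share of tRNA counts lay between 82.7% and 94.2% in every library. At least 100 counts were reached by 6 of the 8 light-strand tRNAs and by 5 of the 14 heavy-strand ones. Light-strand tRNAs had a median adenine content of 29.3%, against 37.3% for heavy-strand tRNAs. Across the 22 tRNAs the total count ran against adenine content, with a Spearman rho of -0.72, and followed GC content at 0.40. These rank correlations describe genes that share libraries and, within a strand, a precursor, so they carry no p. No source used here gives the strand setting of the counting, and reads of a tRNA and of a precursor copied from the opposite strand cannot be told apart. Nor do counts per symbol from 3′ mRNA sequencing separate a mature tRNA or rRNA from a longer precursor of the same strand. Values of tRNA and rRNA rows are therefore levels of reads on these rows, not of the mature RNA.

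Counts of mRNA were concentrated in 3 genes in each of the 12 libraries. mt-Nd4, mt-Cytb and mt-Nd1 were the first 3 everywhere and together took 67.6% to 83.9% of the mitochondrial mRNA counts. mt-Nd4 and mt-Nd1 encode subunits of complex I, and mt-Cytb encodes cytochrome b of complex III. The share of mRNA counts had a median of 28.1% for mt-Nd4, 24.8% for mt-Cytb, 22.8% for mt-Nd1 and 11.1% for mt-Nd2, another complex I subunit. Medians of 5.13%, 3.95% and 3.87% belonged to mt-Nd6, mt-Co1 and mt-Nd5, so that neighbours in the order below mt-Nd2 had overlapping ranges. mt-Nd4 ranked first in 9 libraries and mt-Cytb in the other 3.

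The class shares separated young control libraries from old control and young het libraries. Mitochondrial rRNA took 4.78%, 1.40% and 4.75% of all counts in old het, 1.70%, 2.38% and 2.13% in old control, 3.51%, 3.01% and 2.999% in young het, and 5.03%, 8.22% and 4.35% in young control libraries. For mitochondrial mRNA the shares were 1.94%, 0.529% and 1.30% in old het, 0.862%, 1.08% and 0.883% in old control, 0.853%, 1.91% and 2.07% in young het, and 5.28%, 5.58% and 3.07% in young control libraries. In each of these classes the 3 young control libraries lay above every old control and young het library, while old het 1 and 3 overlapped the young controls in rRNA. The tRNA rows took 0.0516%, 0.0171% and 0.0303% in old het, 0.0208%, 0.0261% and 0.0168% in old control, 0.0182%, 0.0259% and 0.0253% in young het, and 0.0923%, 0.144% and 0.0839% in young control libraries. Here every young control library lay above the other 9. Counting error was small beside these gaps. In young control 2, the shallowest library, the 95% Wilson interval was 8.16% to 8.29% for rRNA, 5.53% to 5.64% for mRNA and 0.135% to 0.154% for tRNA.

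Ratios of the mean shares differed by class. Old control over young control stood at 0.352 for rRNA, 0.203 for mRNA and 0.199 for tRNA. Young het over young control stood at 0.541 for rRNA, 0.347 for mRNA and 0.217 for tRNA. For old het over old control the ratios were 1.76, 1.33 and 1.56, but old het libraries overlapped old controls in each class because old het 2 lay below all of them or among them. A share summed over rows was given no p, and 3 against 3 libraries cannot reach an exact two-sided permutation p below 0.1. In libraries of sorted bulk cells, fewer mitochondria-rich cells and less mitochondrial RNA per cell cannot be told apart.

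**Figure D2:**
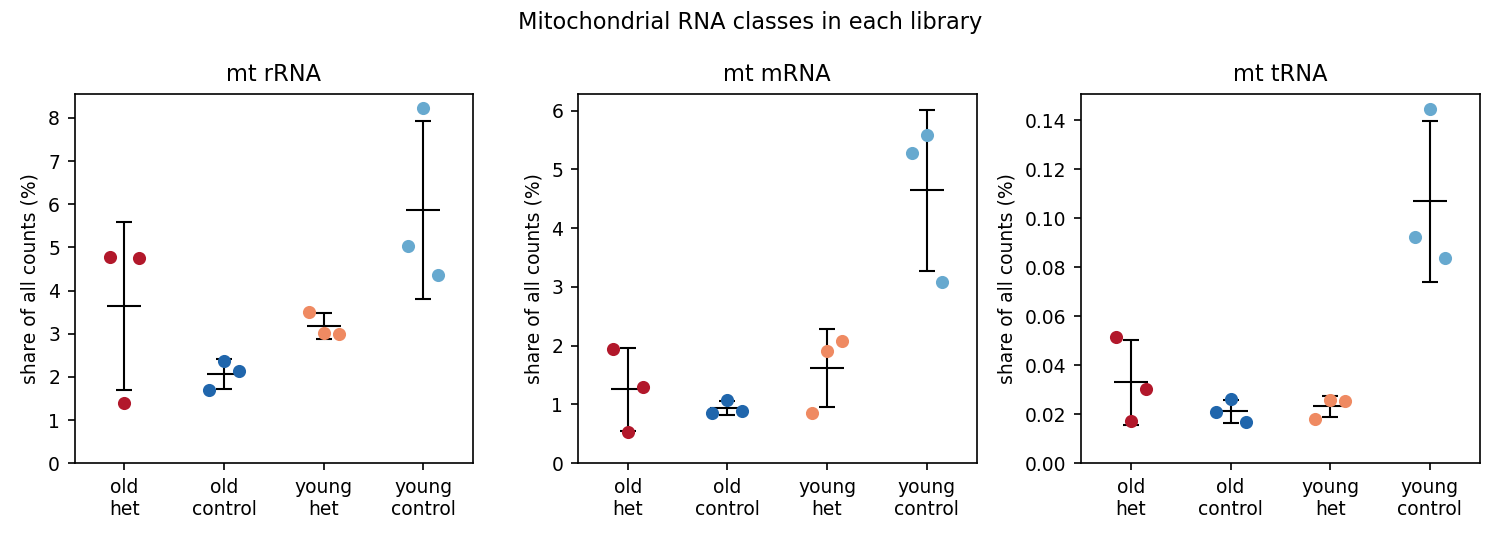
Share of all counts, in percent, taken by mitochondrial rRNA, mRNA and tRNA in each library (points), with the mean and SD of 3 libraries per group (bars). Young control libraries span 4.35% to 8.22% for rRNA, 3.07% to 5.58% for mRNA and 0.0839% to 0.144% for tRNA, above every old control and young het library.

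Transcripts of the mitochondrial genome had lower levels in old control than in young control progenitors. Both rRNAs, 7 of the 8 tested mRNAs and 6 of the 11 tested tRNAs were lower in old control, and none was higher. These calls are from edgeR's quasi-likelihood test at a Benjamini-Hochberg adjusted p below 0.05 over 10604 genes, of which 6.98% were called in either direction and 4.19% as lower. The test took 21 of the 37 rows. The other 16, each under 100 counts in all, did not pass the filter on low counts. A row that passes only through the group where it is high had to differ, so the 14 rows at or above the filter's 4.57 CPM in all 12 libraries are the plainer group. All 14 were called lower in old control, and mt-Tm, at that level in 11 libraries, was the 15th.

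Of the called rows in this comparison, mt-Rnr1 fell least. mt-Rnr1 stood at 5443, 9079 and 7691 CPM in old control libraries, against 11833, 20629 and 19366 CPM in young control libraries, a log2 change of -1.49 (SE 0.40, edgeR adjusted p = 0.0310). mt-Rnr2 stood at 11514, 14698 and 13559 CPM in old control, against 38489, 61615 and 24146 CPM in young control libraries, a log2 change of -1.94 (SE 0.48, edgeR adjusted p = 0.0183). Every old control library lay below every young control library for both. Leaving out old control 1, 2 or 3 or young control 2 in turn ended both calls, at log2 changes of -1.29 to -1.68 for mt-Rnr1 and -1.67 to -2.03 for mt-Rnr2. Log2 changes here are from TMM-scaled libraries, while the CPM values are against each library's own total.

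Among the mRNAs mt-Nd4, the most counted, fell most. mt-Nd4 had 2175, 2644 and 2349 CPM in old control, against 20314, 16662 and 10214 CPM in young control libraries (log2 change -3.04, SE 0.48, edgeR adjusted p = 0.00117). mt-Nd1 had 1713, 2457 and 2166.3 CPM in old control, against 10969, 12716 and 7618 CPM in young control libraries (log2 change -2.61). mt-Cytb had 2443, 2675 and 2092 CPM in old control, against 11943, 15058 and 7958 CPM in young control libraries (log2 change -2.58). For each of these every young control library lay far above every old control library. mt-Nd6, the only mRNA copied from the light strand and a complex I subunit, had 477, 740.1 and 410.1 CPM in old control, against 3081, 3583 and 1229 CPM in young control libraries (log2 change -2.59). mt-Co1, a catalytic subunit of cytochrome c oxidase, had 344, 509.6 and 402 CPM in old control, against 1466, 2147 and 875 CPM in young control libraries (log2 change -2.14). The called mRNAs thus included subunits of complexes I, III and IV and came from either strand.

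The complex I subunits mt-Nd5 and mt-Nd2 fell less than mt-Nd4. mt-Nd5 had 464, 403 and 348 CPM in old control, against 1488, 1441 and 784 CPM in young control libraries (log2 change -1.93). mt-Nd2 had 1003, 1362 and 1038 CPM in old control, against 3455, 4068 and 2054 CPM in young control libraries (log2 change -1.80). Adjusted p was at most 0.00899 by edgeR for these called mRNAs, and without old control 1 the call on mt-Nd2 was lost (adjusted p = 0.0503). mt-Nd3, tested but not called, had a log2 change of -2.79 (SE 1.03, edgeR adjusted p = 0.104) and ranged from 1.76 to 25.5 CPM in old control and from 16.1 to 138 CPM in young control libraries.

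Of the tRNAs, mt-Tp had the smallest p of all mitochondrial rows in this comparison. It stood at 58.4, 66.5 and 58.3 CPM in old control, against 253, 401 and 219 CPM in young control libraries (log2 change -2.54, SE 0.37, edgeR adjusted p = 9.39e-04). mt-Tq stood at 33.3, 56.4 and 28.4 CPM in old control, against 234, 333 and 177 CPM in young control libraries (log2 change -2.94). mt-Te stood at 43.5, 40.2 and 13.5 CPM in old control, against 157, 212 and 182 CPM in young control libraries (log2 change -2.78). These 3 tRNAs, the most counted ones, had no overlap between the groups.

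Lower counts stood behind the other called tRNAs. mt-Tm had 9.02, 8.10 and 6.27 CPM in old control, against 66.8, 110.0 and 32.2 CPM in young control libraries (log2 change -3.44, edgeR adjusted p = 0.00278). mt-Tn had 34.1, 33.1 and 34.7 CPM in old control, against 76.2, 169 and 62.3 CPM in young control libraries (log2 change -1.87, edgeR adjusted p = 0.0265). mt-Tc had 6.12, 21.3 and 15.9 CPM in old control, against 28.7, 91.4 and 93.7 CPM in young control libraries (log2 change -2.56, edgeR adjusted p = 0.0355). The groups did not overlap for these either. The call on mt-Tn was lost without young control 2 (adjusted p = 0.125) and without old control 1 (0.0940), 2 (0.0870) or 3 (0.0792). That on mt-Tc was lost without old control 1, 2 or 3 or young control 2 or 3, with adjusted p of 0.0579 to 0.147. The tested tRNAs that were not called, mt-Ta, mt-Tl1, mt-Tt, mt-Ti and mt-Tv, had log2 changes of -0.97 to -3.07 and SEs of 1.02 to 1.68.

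All 21 tested rows had a log2 change below 0 in old control against young control, beside 42.1% of all genes tested, with a median of -2.57 beside 0.22. Groups did not overlap for 17 of the 21 rows, all lower in old control, while 12.2% of all tested genes were lower without overlap. All 14 rows at the filter level in all 12 libraries were lower without overlap, and their median was -2.55. Scaling by total counts alone moved the median of all genes by 0.30, to 0.52, and the median of the 21 rows then lay 2.79 below it, as it did with TMM. The count of called rows stayed between 10 and 17 under every alternative, and 10 rows were called in each of them, namely mt-Nd1, mt-Nd4, mt-Nd5, mt-Nd6, mt-Cytb, mt-Co1, mt-Tp, mt-Tq, mt-Te and mt-Tm. The lowest count, 10, was without old control 1, and 11 rows were called without old control 2, without old control 3 or without young control 2. Without old control 1 and young control 3 together, a setting chosen after seeing the data, 13 were called.

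The young control libraries also stood apart in small nuclear and nucleolar RNA, which took 0.1001% to 0.256% of counts in the 9 libraries of the other groups and 0.346% to 0.781% in young control libraries. Sums of marker genes followed only some of their members. The 5 mature granulocyte markers summed to 265 to 758 CPM in old control, 1333 to 2973 CPM in young het and 1775 to 4082 CPM in young control libraries, so that young het overlapped young control. Most of this sum was Camp, at 221 to 711 CPM in old control, 1294 to 2742 CPM in young het and 1733 to 3819 CPM in young control libraries, while Ltf, Mmp8 and Retnlg overlapped between old control and young control and Ly6g had no count in any library. The 7 myeloid progenitor markers summed to 8305 to 14364 CPM in old control, 7957 to 8874 CPM in young het and 3873 to 7151 CPM in young control libraries. Mpo, Prtn3, Elane and Cd34 were higher in every young het than in every young control library. The other members overlapped, with Ctsg at 339 to 433 CPM in young het and 367 to 515 CPM in young control, Kit at 97.2 to 162 CPM in young het and 108 to 265 CPM in young control, and Myb at 939 to 1324 CPM in young het and 901 to 1108 CPM in young control libraries. Given as sums only, the 4 megakaryocyte markers lay at 171 to 389 CPM in old control, 59.4 to 246 CPM in young het and 80.6 to 161 CPM in young control libraries. Sums of monocyte, erythroid, B cell, T and NK cell and plasma cell markers overlapped between old control and young control. The plasma cell sum nevertheless ranged from 0 to 55.5 CPM in old control, against at most 5.78 CPM in the other groups. In old het libraries the sums were 293 to 438 CPM for granulocyte, 7749 to 15478 CPM for progenitor and 90.9 to 265 CPM for megakaryocyte markers. The part of these measures and of the shallower young control libraries in the mitochondrial differences was not tested. Among libraries that carried Ddx3y, old controls held 2.58% to 3.48% of their counts in mitochondrial rows. Old het 2 and 3 held 1.95% and 6.08%, and young control 1 and 2 held 10.4% and 13.95%. The part of sex in these shares was not tested.

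**Figure D3:**
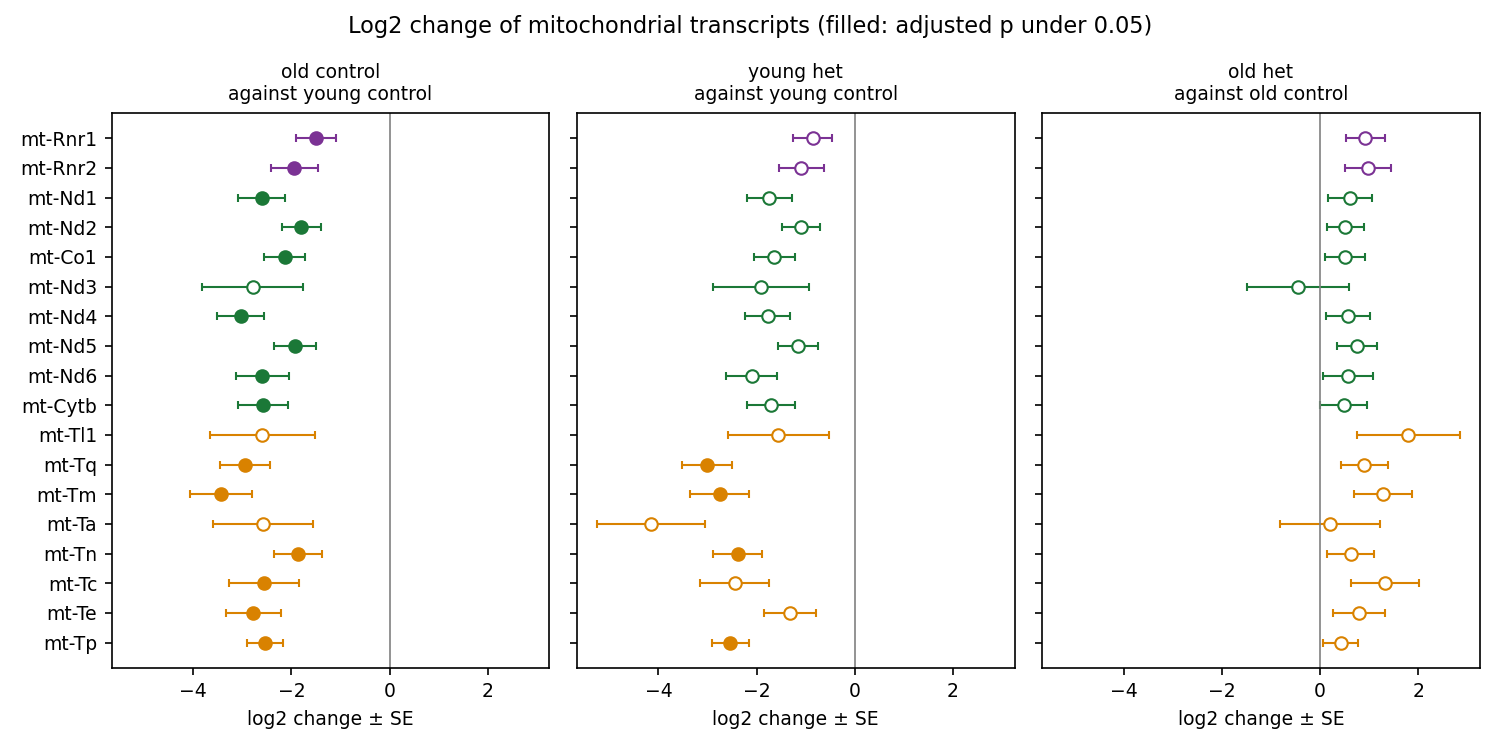
Log2 change (points) with its SE (bars) of 18 of the 21 tested mitochondrial rows in 3 comparisons, filled where edgeR's adjusted p is below 0.05; mt-Tv, mt-Ti and mt-Tt, counted in 9 libraries or fewer, are not drawn. In old control against young control all 18 points lie below 0 and 15 are filled, in young het against young control all lie below 0 and 4 are filled, and in old het against old control none is filled.

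The het and control progenitors of young mice differed at 4 tRNA rows. mt-Tp, mt-Tq, mt-Tn and mt-Tm were lower in young het, no row was higher, and no rRNA or mRNA was called. Over all 10604 genes edgeR called 0.424% in this comparison, and 0.245% as lower. All 21 tested rows had a log2 change below 0, beside 45.8% of all genes tested, with a median of -1.91 beside 0.08, and 15 rows were lower without overlap, beside 7.12% of all tested genes. Among the 15, mt-Ta reached the filter level in 1 young het and 3 young control libraries, and mt-Tv in 0 and 2, so they passed mainly where they were high. Of the 14 rows at that level in all 12 libraries, 3 were called and 12 were lower without overlap, with a median of -1.72. This comparison and that of the control groups across age share the young control libraries, so their values are given side by side and the likeness between them is not a result.

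mt-Tp stood at 45.9, 64.5 and 54.5 CPM in young het, against 253, 401 and 219 CPM in young control libraries, a log2 change of -2.53 (SE 0.37, edgeR adjusted p = 0.00538). mt-Tq stood at 17.3, 51.7 and 32.0 CPM in young het, against 234, 333 and 177 CPM in young control libraries, a log2 change of -3.01 (SE 0.50, edgeR adjusted p = 0.0126). For these tRNAs, which carry proline and glutamine, every young control library lay far above every young het library. mt-Tn, the asparagine tRNA, had 21.2, 30.9 and 11.3 CPM in young het, against 76.2, 169 and 62.3 CPM in young control libraries (log2 change -2.38, edgeR adjusted p = 0.0459). mt-Tm, the methionine tRNA that also starts translation in mitochondria, had 11.2, 4.56 and 18.4 CPM in young het, against 66.8, 110.0 and 32.2 CPM in young control libraries (log2 change -2.75, edgeR adjusted p = 0.0493). For all 4 the groups did not overlap.

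The other tRNAs ranged widely. mt-Te, the tested tRNA with the smallest change here, had 50.8, 69.9 and 121 CPM in young het, against 157, 212 and 182 CPM in young control libraries (log2 change -1.33, SE 0.53, edgeR adjusted p = 0.255). mt-Tc had 19.6, 15.7 and 6.19 CPM in young het, against 28.7, 91.4 and 93.7 CPM in young control libraries (log2 change -2.45, edgeR adjusted p = 0.118). Groups were apart for both, but neither was called. mt-Tv had no count in any young het library and 22 counts in the young control libraries, and it was not called (edgeR adjusted p = 0.106). mt-Ta, the alanine tRNA, was at 0, 1.62 and 5.67 CPM in young het, against 29.4, 38.7 and 56.4 CPM in young control libraries (edgeR adjusted p = 0.0891).

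No rRNA or mRNA was called in young mice. On TMM-scaled levels, from which the rows without overlap were counted, young het overlapped young control for mt-Rnr2, mt-Nd2 and mt-Nd3. On CPM against each library's own total mt-Nd5 overlapped as well, with young het 3 at 788 CPM and young control 3 at 784 CPM. mt-Rnr1 had 10822, 9642 and 10494 CPM in young het, against 11833, 20629 and 19366 CPM in young control libraries (log2 change -0.86, SE 0.40, edgeR adjusted p = 0.337). mt-Rnr2 had 24311, 20469 and 19495 CPM in young het, against 38489, 61615 and 24146 CPM in young control libraries (log2 change -1.09, SE 0.46, edgeR adjusted p = 0.292). mt-Nd6 had the smallest p of the mRNAs, at 469, 719 and 867 CPM in young het, against 1229 to 3583 CPM in young control libraries (log2 change -2.10, SE 0.53, edgeR adjusted p = 0.0764). For mt-Rnr1 and mt-Nd6 the groups were apart. mt-Nd2 had the smallest change of the tested mRNAs, at 1039.8, 1650.2 and 2292 CPM in young het, against 3455, 4068 and 2054 CPM in young control libraries (log2 change -1.10, SE 0.38, edgeR adjusted p = 0.194). For mt-Nd4 the young het values were 2379, 6395 and 6737 CPM, against 20314, 16662 and 10214 CPM in young control libraries (log2 change -1.77, SE 0.46, edgeR adjusted p = 0.0861). Young het 1 was the lowest of its group for mt-Nd4, mt-Cytb (1903, 4751 and 5295 CPM) and mt-Nd1 (1884, 4395 and 4096 CPM) but the highest for mt-Rnr2.

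The number of called rows in the young comparison rested on single libraries and on the test. No row was called without young het 3 or without young control 2. Without young het 1 a single row, mt-Tp, was called. Without young het 2, young control 1, old het 3, old control 2 or old control 3 the count was 2, namely mt-Tp and mt-Tq. mt-Tm alone was lost without old het 1 or old control 1. The count was 8 without young control 3 and 9 without old het 2, which added mRNAs and no rRNA. DESeq2 called 12 rows, as did edgeR with no filter on low counts, and limma-voom called 2. Without old control 1 and young control 3 together, chosen after seeing the data, 8 were called. Young het libraries held 4.38% to 5.10% of their counts in mitochondrial rows, against 7.51% in young control 3, which likewise had no Ddx3y count, and 10.4% and 13.95% in young control 1 and 2.

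**Figure D4:**
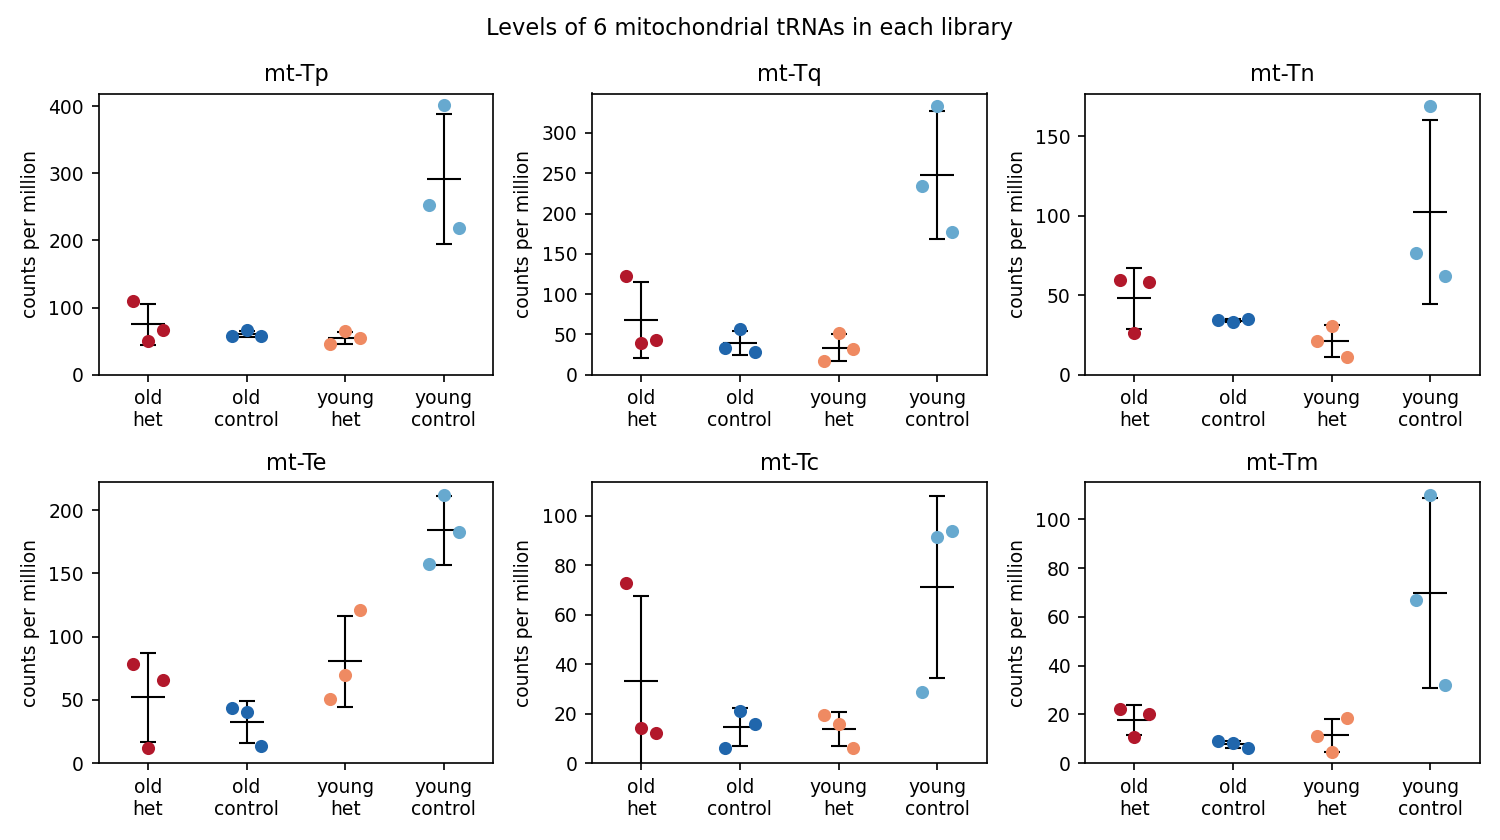
Level in CPM, against all counts of a library, of the 6 tRNAs counted in every library, by group (points are libraries, bars the mean and SD of 3). For mt-Tp the 9 libraries of the other groups lie at 45.9 to 109 CPM and the young control libraries at 219 to 401 CPM. For mt-Te the distance is smaller, with young het 3 at 121 CPM and young control 1 at 157 CPM. For mt-Tc the groups overlap, with old het 1 at 72.8 CPM above young control 1 at 28.7 CPM.

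No mitochondrial row was called between het and control progenitors of old mice. Of all 10604 genes, edgeR called 0 (0%), and DESeq2 and limma-voom also called no mitochondrial row. At an unadjusted p below 0.05, 3 rows passed, beside 3.58% of all tested genes. These were mt-Rnr1, mt-Rnr2 and mt-Tm. mt-Rnr1 stood at 16683, 5896 and 15698 CPM in old het, against 5443, 9079 and 7691 CPM in old control libraries (log2 change 0.92, SE 0.40). mt-Rnr2 stood at 31127, 8119 and 31784 CPM in old het, against 11514, 14698 and 13559 CPM in old control libraries (log2 change 0.98, SE 0.46). Old het 1 and 3 lay above all old controls for both rRNAs, and old het 2 lay within or below them. mt-Tm stood at 22.1, 10.9 and 20.1 CPM in old het, against 9.02, 8.10 and 6.27 CPM in old control libraries (log2 change 1.28, SE 0.60), with no overlap. All of these had an edgeR adjusted p of 0.999.

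The mRNA with the smallest p in old mice was mt-Nd5, at 897, 249 and 697 CPM in old het, against 464, 403 and 348 CPM in old control libraries (log2 change 0.74, SE 0.41, edgeR adjusted p = 0.999). Over the 21 rows 19 changes were above 0, beside 46.8% of all genes tested, with a median of 0.60 beside -0.05. That median was 0.18 without old het 1, where 14 changes were above 0, 0.996 without old het 2 and 0.39 by limma-voom. In the fit of all libraries, 3 rows (mt-Tl1, mt-Tt and mt-Tm) were higher without overlap, beside 5.15% of all tested genes. Of these, mt-Tl1 reached the filter level in 3 old het libraries and 1 old control library, and mt-Tt in 3 old het and 0 old control libraries. Of the 14 rows at that level in all 12 libraries, 0 were without overlap. Old het libraries differed among themselves more than old control libraries did, with 6.78%, 1.95% and 6.08% of all counts in mitochondrial rows, against 2.58%, 3.48% and 3.03% in old control libraries. The SE was 0.36 to 0.69 for the 14 rows above the filter level in all libraries, and the absence of calls does not show that the groups were alike.

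The het effect differed between the ages at mt-Tp and mt-Tq. The old effect minus the young effect was 2.96 for mt-Tp (SE 0.51) and 3.91 for mt-Tq (SE 0.69), each with an edgeR adjusted p of 0.0228. Of all 10604 genes 0.0849% were called in this test, and 0.0754% as higher. mt-Tp was at 109, 49.9 and 66.8 CPM in old het, against 58.4, 66.5 and 58.3 CPM in old control libraries (log2 change 0.42, edgeR adjusted p = 0.999), and mt-Tq was at 123, 39.1 and 42.8 CPM in old het, against 33.3, 56.4 and 28.4 CPM in old control libraries (log2 change 0.90). In old mice the groups overlapped for both tRNAs, whereas in young mice het libraries lay below controls. The next rows by p were mt-Tm (4.04, SE 0.85, edgeR adjusted p = 0.0616) and mt-Tn (3.004, SE 0.69, edgeR adjusted p = 0.0813). The mRNA with the smallest p was mt-Co1 (2.15, SE 0.58, edgeR adjusted p = 0.117), and both rRNAs had adjusted p of 0.188 or more. No row was called without young het 3, young control 2, old het 1, old control 1 or old control 3. A single row was called without young het 2, young control 1 or old het 3, against 7 without young control 3 and 14 without old het 2. DESeq2 and edgeR without a filter each called 14, and limma-voom called none.

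No mitochondrial row was called between old het and young het progenitors. Of all 10604 genes, 0.00943% were called in this comparison by edgeR, and DESeq2 and limma-voom called no mitochondrial row. At an unadjusted p below 0.05, 2 rows passed, mt-Tv and mt-Tn, beside 6.28% of all genes tested. mt-Tv had 1.58, 1.74 and 2.59 CPM in old het and no count in young het libraries, where the limit is 0.442 to 0.964 CPM per library. The old het values rest on 2, 4 and 4 counts, and mt-Tv reached the filter level in no library of either group. mt-Tn had 59.3, 26.0 and 58.4 CPM in old het, against 21.2, 30.9 and 11.3 CPM in young het libraries (log2 change 1.13, SE 0.48, edgeR adjusted p = 0.726), and old het 2 overlapped young het. mt-Nd4 had 4760.4, 1494 and 3465 CPM in old het, against 2379, 6395 and 6737 CPM in young het libraries (log2 change -0.69, edgeR adjusted p = 0.870). Of the 21 rows 1, mt-Tv, was higher in old het without overlap, beside 7.08% of all tested genes.

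Within the mitochondrial counts, which are free of the library total, the make-up also differed between groups. Counts of mRNA per count of rRNA were 0.406, 0.377 and 0.274 in old het, 0.508, 0.455 and 0.416 in old control, 0.243, 0.636 and 0.691 in young het, and 1.05, 0.679 and 0.707 in young control libraries. Old controls lay below young controls without overlap, and young het overlapped young control. Old hets lay below old controls without overlap, at 0.406 against 0.416 for the nearest libraries. By chance alone, 3 against 3 libraries lie apart in 10% of cases, and several measures of make-up were looked at. As part of mitochondrial counts, tRNA made up 0.761%, 0.876% and 0.499% in old het, 0.805%, 0.748% and 0.556% in old control, 0.415%, 0.523% and 0.497% in young het, and 0.887%, 1.04% and 1.12% in young control libraries. All young controls lay above every other library. mt-Rnr2 per mt-Rnr1 ranged from 1.38 to 2.02 in old het, 1.62 to 2.12 in old control, 1.86 to 2.25 in young het and 1.25 to 3.25 in young control libraries. Young control 3 held the lowest value of the 12 and young control 1 and 2 the highest.

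mt-Nd4 made up 7.93% of mitochondrial counts on average in old control, against 15.02% in young control libraries, without overlap. mt-Cytb made up 8.02% in old control against 10.96% in young control, and mt-Nd1 6.95% against 9.93%, also without overlap. mt-Tp, mt-Tq and mt-Tm were a smaller part in old control as well, whereas mt-Nd2 was a larger part without overlap, with 3.74% in old control against 2.99% in young control libraries. Between young het and young control libraries, mt-Tp averaged 0.114% of mitochondrial counts in young het against 0.274% in young control, and mt-Tq 0.0689% against 0.233%. mt-Tn, mt-Tm, mt-Cytb and mt-Nd1 were also a smaller part of the mitochondrial counts in every young het than in every young control library. The same held for mt-Ta and mt-Tv, which passed the filter mainly where they were high. They reached its level in 1 and 0 young het libraries and in 3 and 2 young control libraries. All light-strand transcripts together made up 1.42% to 2.15% of mitochondrial counts in young het and 2.69% to 3.71% in young control libraries. No p is given for these parts of a whole, and by chance alone 3 against 3 libraries lie apart in 10% of cases.

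**Figure D5:**
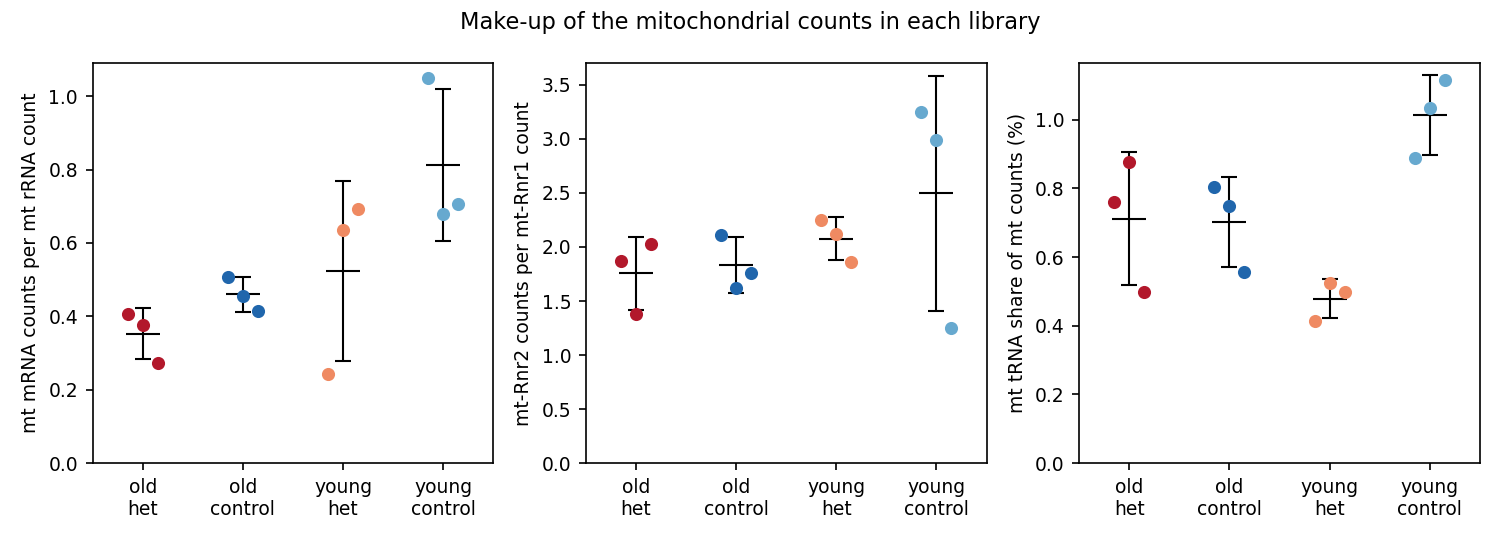
Make-up of the mitochondrial counts in each library (points), with the mean and SD of 3 libraries per group (bars): mRNA per rRNA count, mt-Rnr2 per mt-Rnr1 count, and the percent of mitochondrial counts on tRNA rows. The tRNA share is at most 0.876% in the 9 libraries of the other groups and 0.887% to 1.12% in young control libraries, and the mRNA to rRNA ratio of old het libraries, 0.274 to 0.406, lies below that of old control libraries.

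Nuclear rows with sequence like mitochondrial genes were few and thinly counted. Of all rows in the table, 5 match a mitochondrial transcript at 95% identity or more over at least 200 bases. Gm13341, close to mt-Co2, had 513 counts over the 12 libraries, Gm13340 (mt-Co1) 233, Gm10925 (mt-Atp6) 225, Gm13339 (mt-Nd2) 81 and Gm10222 (mt-Nd4l) 1. Gm10925, which is identical to mt-Atp6 over 678 bases, had 0.829, 2.53 and 2.41 CPM in old control, 3.53, 3.97 and 3.95 CPM in young het and 40.0, 24.8 and 28.6 CPM in young control libraries. All young control libraries lay above the rest. In old control against young control the log2 change was -4.36 for Gm10925 (edgeR adjusted p = 0.0111), -4.65 for Gm13340 (0.00576) and -2.46 for Gm13341 (0.0412). In young het against young control it was -3.17, -2.94 and -1.22, with edgeR adjusted p of 0.118, 0.126 and 0.441. Whether these counts come from the nuclear copies or from mitochondrial RNA cannot be told apart from counts per symbol.

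Nuclear genes that make, cut, modify or charge mitochondrial RNA were described in 4 lists. Of these lists, chosen with earlier results of these data known, 15 of 17 genes of transcription and mitochondrial DNA maintenance were tested, 28 of 29 of RNA processing and decay, 17 of 19 of tRNA modification, and all 23 mitochondrial aminoacyl-tRNA synthetases. In young het against young control none was called, beside 0.424% of all genes tested, and the medians were 0.01, -0.28, -0.02 and -0.05 beside 0.08 over all genes. In old control against young control 1 gene of each of the first 3 lists was lower, 3 of the 83 tested, beside 4.19% of all genes tested, and no synthetase was called. The count was thus near the share over all genes and says nothing particular of these lists, which had medians of 0.24, 0.04, 0.14 and 0.15 beside 0.22 over all genes. Mrpl12, a ribosomal protein that also binds the mitochondrial RNA polymerase, averaged 377 ± 82.6 CPM in old control and 731 ± 105 CPM in young control libraries (SD, n = 3 each; log2 change -1.26, edgeR adjusted p = 0.0219). Tbrg4, a protein of mitochondrial RNA stability, averaged 140 ± 22.6 CPM in old control and 289 ± 59.3 CPM in young control libraries (SD, n = 3 each; log2 change -1.36, edgeR adjusted p = 0.0303). Nsun2, a cytosine methyltransferase of tRNAs in several compartments, averaged 1038 ± 161 CPM in old control and 1750 ± 281 CPM in young control libraries (SD, n = 3 each; log2 change -1.06, edgeR adjusted p = 0.0459).

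The list members with the smallest p in the young comparison did not pass the threshold. Nsun3, which methylates the anticodon of mt-Tm, averaged 13.5 ± 1.02 CPM in young het and 1.70 ± 2.34 CPM in young control libraries (SD, n = 3 each; log2 change 2.57, edgeR adjusted p = 0.199). That young control mean lies below the limit that a count of 0 allows there, 1.87 to 4.65 CPM per library, so the size of the change is uncertain. Trnt1, which adds CCA to tRNAs, averaged 13.2 ± 4.70 CPM in young het and 26.4 ± 3.16 CPM in young control libraries (SD, n = 3 each; log2 change -1.13, edgeR adjusted p = 0.278). Grsf1, an RNA-binding protein of mitochondrial RNA granules, had a log2 change of 1.39 and Ddx28, a helicase of mitochondrial ribosome assembly, one of 0.92 (edgeR adjusted p of 0.315 and 0.278). Tfam, which packages mitochondrial DNA, had a log2 change of -0.66 and Nars2, the asparagine synthetase of mitochondrial tRNA, one of -1.36 (edgeR adjusted p of 0.529 and 0.353). In old het against old control, in old het against young het and in the difference of het effects no member of the 4 lists was called.

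By Pearson correlation with the summed mitochondrial mRNA on a log2 CPM scale over the 12 libraries, the rows most like it were Mvk (0.975), Scd2 (0.966), Klkb1 (0.959), Rpl10a-ps1 (0.954) and Gm13341 (0.953). Mvk, mevalonate kinase of sterol synthesis, stood at 19.4, 28.1 and 22.2 CPM in old control, 23.1, 30.3 and 40.9 CPM in young het and 78.1, 72.8 and 47.6 CPM in young control libraries. Scd2, a fatty acid desaturase, stood at 217, 366 and 323 CPM in old control, 373, 609.7 and 707 CPM in young het and 1558, 1585 and 1477 CPM in young control libraries. In both the young control libraries lay above the other groups shown, as they did for the mitochondrial mRNA. The points share library, depth and group, the rows were picked as the highest of all tested, and no p is given.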

How the data were processed

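The authors deposited 1 table of raw counts per symbol for the 12 libraries. The build mm9 and the tools HTSeq 0.6.1, STAR 2.4 and DESeq2 appear, with no role or order, per the submitters' processing notes. Annotation, strand setting and handling of reads with several matches are not given in these sources. No coordinates are printed, because the reference at hand was GRCm38. It gave gene order, strand, tRNA sequences and, by blastn 2.17.0 (E-value at most 1e-05), nuclear transcripts like mitochondrial ones.

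The whole table was fitted with edgeR 4.0.16 in R 4.3.3 (quasi-likelihood F test, TMM scaling, filterByExpr at 10 counts per library and 15 in total), which left 10604 genes. The 4 groups of 3 libraries shared 1 fit without covariates, 5 comparisons were made, and Benjamini-Hochberg adjusted p over all tested genes was called below 0.05. The SE is the absolute log2 change divided by the square root of F. Totals of 645460 to 9645502 counts set the precision. Alternatives were DESeq2 1.42.0, limma-voom (limma 3.58.1), other scalings and filters, the compared groups alone, and leaving out each library. On simulated data the fit recovered 2.99% to 7.46% of 2-fold changes, depending on the comparison, with 0 to 4 false calls. It recovered 35.8% to 44.8% of 4-fold and 51.5% to 69.7% of 8-fold changes, so real changes can go uncalled. The changed genes were drawn at random from all genes that passed the filter, so these shares are not specific to mitochondrial rows. The difference of het effects and old het against young het were not simulated.

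The members and lists were chosen with earlier results of these data known. Full values by library are given for both rRNAs, every called row, the 3 mRNAs and 3 tRNAs with the largest share, the row of each class with the smallest p in each comparison, and the mRNA and tRNA with the smallest change in young mice. From each nuclear list the called members and up to 3 by p in young mice could be named.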

Additional observations from a re-analysis of the deposited data

Results flagged for a closer look

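In the test of the difference between the het effect in old mice and that in young mice, 2 mitochondrial rows passed. mt-Tp had a difference of 2.96 on the log2 scale (old effect minus young effect, edgeR adjusted p = 0.0228) and mt-Tq one of 3.91 (edgeR adjusted p = 0.0228). For both tRNAs all young het libraries lay below all young control libraries, while old het and old control libraries overlapped. The young control libraries, which enter both differences, also had smaller totals than the young het and old control libraries and the highest share of small nuclear and nucleolar RNA, and the part of these in the difference was not tested.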

How the results depend on the processing

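The count of mitochondrial rows called in old control against young control was 15 and stayed within 1.5 times of that under every alternative (10 to 15 when leaving out 1 library, at most 17 otherwise). In old het against old control and in old het against young het it was 0 under each of them. In young het against young control, 4 rows in the reported fit, it was 12 by DESeq2 and with no filter, 2 by limma-voom and with the compared groups alone, 8 without old control 1 and young control 3 together (chosen after seeing the data), and 0 to 9 when leaving out 1 library. Of the 4, mt-Tm was also lost when scaled by total counts alone (adjusted p = 0.0579). In the difference of het effects, 2 rows in the reported fit, it was 14 by DESeq2 and with no filter, 0 by limma-voom, and 0 to 14 when leaving out 1 library. With the stricter filter (minimum count of 30), DESeq2 size factors, upper quartile scaling and scaling from rows outside mt- the same rows were called as in the reported fit. The cause of these changes was not tested. In old control against young control and in young het against young control no tested mitochondrial row changed direction under any alternative. In the comparisons with old het, up to 5 of the 21 rows did so, all of them uncalled. The median over the 21 rows in old het against young het was 0.28 in the reported fit and -0.15 without old het 1. Differences of class shares changed sign only between overlapping groups. Leaving out 1 library, the rRNA share of old het minus young het was -0.0995 to 1.59 percentage points (-0.0995 without old het 1 and -0.0832 without old het 3), against 0.469 with all libraries. The mRNA share of old het minus old control was -0.0276 to 0.679 (the lowest without old het 1), against 0.315, and that of old het minus young het -0.736 to 0.00784 (the highest without old het 2), against -0.356. No paired analysis was possible because the labels give no replicate number that groups share. Few counts limit the 5 untested rows that were counted at all, why 11 rows had no count was not tested, and counts per symbol cannot separate RNA of the nuclear copies.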
